A study of Homo sapiens with 6 samples.

Results

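FOXM1, the MYB-family factors MYBL1 and MYBL2, the MuvB subunits LIN9, LIN37, LIN52 and LIN54, the DP proteins TFDP1 and TFDP2 and the proliferation antigen MKI67 were followed after knockdown of beta-catenin in MM1.S, a cell line of human multiple myeloma. The members were all probe sets of the array table that its annotation pairs with 1 of these 10 symbols. They came to 24 of 54613 non-control probe sets, each annotated to a single gene, and to 10 of 19775 genes. The tested cells carried a pKLO lentiviral vector with a beta-catenin shRNA and the control cells a pKLO GFP control vector with a control shRNA, and both had been sorted for GFP. Each group was grown as 3 cultures, labelled as biological replicates, which gave 3 knockdown and 3 control arrays of total RNA. Both groups are 1 cell line, and the labels used here give no hairpin sequence, no number of hairpins and no separate infections, so the p-values measure the spread between these cultures. A stretch of the labels on embryos goes against the cell line and was not used.

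These factors drive and mark the division cycle. MuvB is a core complex whose LIN54 subunit contacts the cell cycle genes homology region (CHR) of promoters. In resting cells MuvB joins E2F4 or E2F5, a DP protein and the pocket protein RBL2 (p130) or RBL1 (p107) in the DREAM repressor. In cycling cells it binds B-MYB, the product of MYBL2, and later FOXM1, and this form activates genes of G2 and mitosis. FOXM1, MYBL2 and MKI67 are known to be expressed in cycling cells, and Ki-67, the product of MKI67, is the usual stain for proliferating myeloma cells.

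On the deposited log2 scale the array medians were 5.50 to 5.54 in knockdown and 5.44 to 5.50 in control cultures. Over all probe sets, which are no replicates, pairs of arrays had a Pearson's r of 0.986 to 0.990 among knockdown arrays, 0.980 to 0.983 among control arrays and 0.945 to 0.953 between the groups. The brightest of the 3 probe sets of CTNNB1, the gene of beta-catenin, fell by 1.33 (limma, adjusted p = 2.27e-07), which left 39.8% of the control value. Its second probe set rose by 0.33 (limma, adjusted p = 0.0390) and the remaining one changed by -0.07 without passing the test. Of the plasma cell and myeloma markers, 9 of 9 lay above the median level of the table, with a mean level of 9.49 to 9.58 in knockdown and 9.28 to 9.35 in control arrays. Of these, 4 were called higher and 3 lower (limma at gene level), with changes of -0.32 to 1.17 over the 9. Of all genes tested 25.3% were higher and 22% lower. Above that median lay 2 of 5 markers of T and NK cells, 2 of 4 of myeloid cells, 4 of 5 of fibroblasts and 2 of 5 of epithelial packaging cells. Those above it were CD3D, GNLY, LYZ, CSF1R, COL1A1, COL1A2, DCN, LUM, KRT8 and CDH1, of which CSF1R alone was called (0.31 higher; limma at gene level, adjusted p = 0.0332). CD3E, CD2, NKG7, CD14, ITGAM, COL3A1, EPCAM, KRT18 and KRT19 lay below it. The fibroblast markers averaged 6.35 to 6.42 in knockdown and 6.28 to 6.41 in control arrays, and the means of the other 3 lists lay between 5.32 and 5.62 in both groups. The arrays' ribosomal RNA control probe sets averaged 9.75 to 10.2 in knockdown and 8.60 to 9.63 in control arrays (exact two-sided permutation test, p = 0.1, the smallest that 3 against 3 arrays can give), and their part in the results was not tested. In bulk RNA, fewer dividing cells and less RNA of these genes per cell cannot be told apart.

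FOXM1, MYBL2, LIN9, TFDP1 and MKI67 were lower after the knockdown, LIN52 was higher on 1 of its 2 probe sets, and MYBL1, LIN37, LIN54 and TFDP2 passed the test on no probe set. In all, 12 of the 24 probe sets were lower and 1 was higher (limma, adjusted p under 0.05 over all non-control probe sets). Of all probe sets 23.2% passed this test, 9.95% lower and 13.3% higher, so change was widespread. As counts these were 5434 lower and 7259 higher, or 6964 lower and 6217 higher once each array was centred on its median. The arrays of the groups did not overlap for 15 of the 24, 14 of them lower and 1 higher. The same held for 37.2% of all probe sets, 15.1% lower and 22% higher. The 24 probe sets had a median change of -0.38, against 0.04 for all probe sets. Above the median level of 5.49 lay 15 member probe sets, of which 10 were lower and 1 higher, while 38.3% of all probe sets there passed (17.1% lower and 21.2% higher). Below it lay 9, of which 2 passed, both lower, while 8.19% of all probe sets there passed (2.78% lower and 5.41% higher). At gene level, with 1 bright probe set a gene, 5 members were lower and 1 higher of 8 tested, against 22% lower and 25.3% higher of 12939 genes (47.3% in either direction). MYBL1 and LIN54 were too dim for that test.

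**Figure D1:**
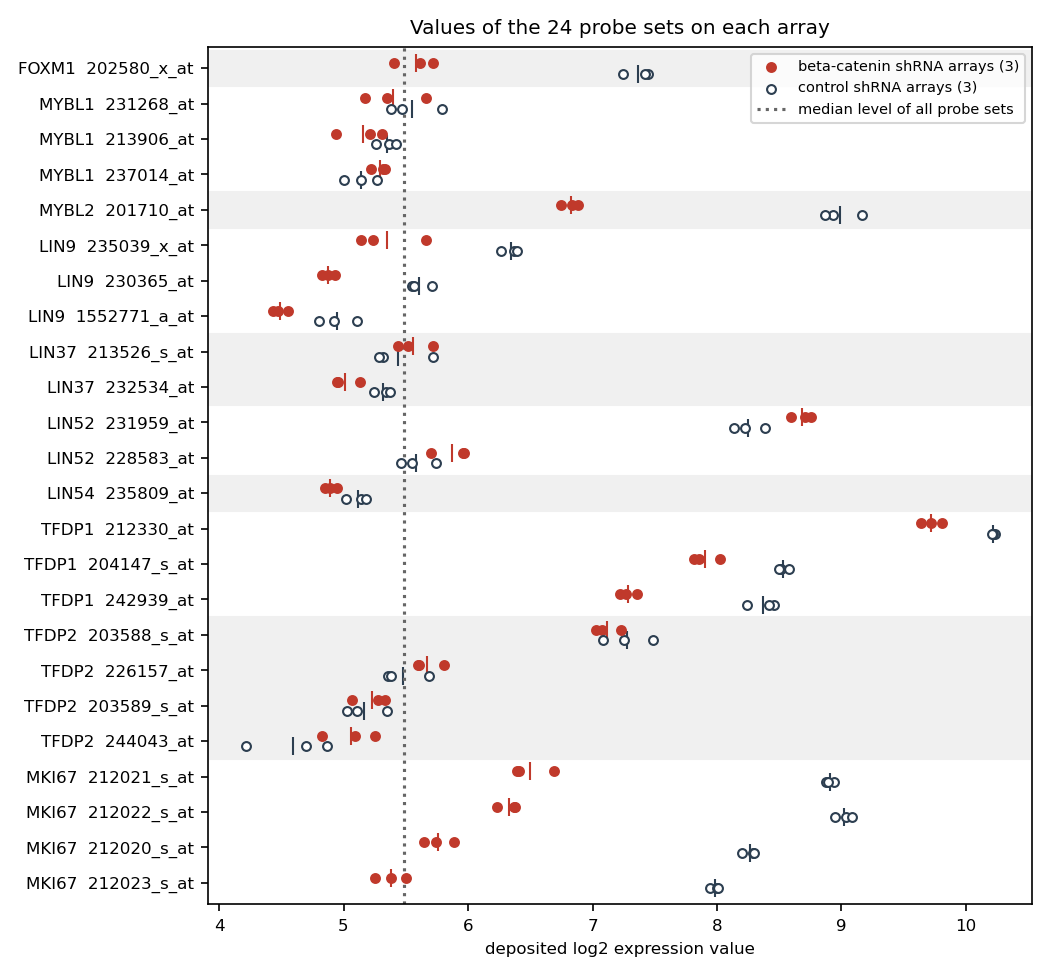
Deposited log2 expression value (horizontal axis) of the 24 probe sets (rows, named by gene and probe set) on the 3 beta-catenin shRNA arrays (filled points) and the 3 control shRNA arrays (open points), with ticks at the group means and a dotted line at the median level of all probe sets (5.49). All knockdown points of FOXM1, MYBL2, LIN9, TFDP1 and MKI67 lie left of the control points of the same probe set, those of the brighter LIN52 probe set lie right of them, and those of MYBL1 and TFDP2 overlap them.

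The promoters of 4 members that fell and of LIN52, which rose, are shown because CHR and E2F elements are the known contacts of MuvB and of E2F with its DP partner. Each window runs from 250 bases before to 50 after an annotated RefSeq start site (GRCh38.p14), 5′ to 3′ on the gene's strand, with matches to CHR or E2F letters in capitals on either strand. The CHR letters searched were TTTGAA or TTCGAA or CTTGAA or TTTAAA. The E2F letters were TTCCCGC or TTGGCGC or TTCGCGC or TTGCCGC, and after a first search had been seen TTCCCGG or TTGGCGG or TTCGCGG or TTGCCGG were added; CHR and E2F matches may overlap other motifs. The windows are MKI67 at chr10:128126374-128126673 on the minus strand, MYBL2 at chr20:43666864-43667163 on the plus strand, LIN9 at chr1:226309115-226309414 on the minus strand (the one of its 3 windows with most CHR matches), TFDP1 at chr13:113584503-113584802 on the plus strand and LIN52 at chr14:74084706-74085005 on the plus strand.
MKI67: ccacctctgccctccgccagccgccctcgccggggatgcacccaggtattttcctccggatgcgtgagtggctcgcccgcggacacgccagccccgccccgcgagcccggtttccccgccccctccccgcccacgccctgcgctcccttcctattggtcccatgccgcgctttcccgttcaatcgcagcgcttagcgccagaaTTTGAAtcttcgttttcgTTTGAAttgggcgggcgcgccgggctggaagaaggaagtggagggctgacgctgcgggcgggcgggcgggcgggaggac
MYBL2: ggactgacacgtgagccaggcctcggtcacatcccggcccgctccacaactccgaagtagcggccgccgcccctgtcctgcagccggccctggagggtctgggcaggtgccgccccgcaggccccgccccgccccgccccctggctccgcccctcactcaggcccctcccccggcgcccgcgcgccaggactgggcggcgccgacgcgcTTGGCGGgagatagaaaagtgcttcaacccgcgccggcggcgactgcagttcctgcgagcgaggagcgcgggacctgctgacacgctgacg
LIN9: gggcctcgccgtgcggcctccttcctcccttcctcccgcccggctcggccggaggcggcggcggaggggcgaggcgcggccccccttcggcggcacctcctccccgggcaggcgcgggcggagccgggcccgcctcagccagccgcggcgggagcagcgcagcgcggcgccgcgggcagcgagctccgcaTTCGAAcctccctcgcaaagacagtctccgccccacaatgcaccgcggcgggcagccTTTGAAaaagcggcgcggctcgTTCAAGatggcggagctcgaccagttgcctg
TFDP1: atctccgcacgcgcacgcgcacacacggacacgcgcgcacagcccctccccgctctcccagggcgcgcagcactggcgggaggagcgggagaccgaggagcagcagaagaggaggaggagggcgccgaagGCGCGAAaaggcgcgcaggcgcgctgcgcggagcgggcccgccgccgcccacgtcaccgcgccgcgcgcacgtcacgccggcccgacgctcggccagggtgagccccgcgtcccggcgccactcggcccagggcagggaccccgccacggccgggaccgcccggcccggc
LIN52: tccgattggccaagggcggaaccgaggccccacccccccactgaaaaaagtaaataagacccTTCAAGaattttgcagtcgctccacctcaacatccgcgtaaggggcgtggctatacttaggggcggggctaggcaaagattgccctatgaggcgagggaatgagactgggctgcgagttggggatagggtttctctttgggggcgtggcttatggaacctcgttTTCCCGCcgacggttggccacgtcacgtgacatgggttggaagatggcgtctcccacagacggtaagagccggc

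The MKI67 window held TTTGAA at 47 and at 29 bases upstream of its start. The LIN9 window held TTCGAA at 60 and TTTGAA at 3 bases upstream and, on the other strand, CTTGAA downstream of the start. The LIN52 window held CTTGAA on the other strand at 188 and TTCCCGC at 24 bases upstream. The TFDP1 window held only TTCGCGC, on the other strand at 120 bases upstream, and the MYBL2 window only the added TTGGCGG, at 41. FOXM1 and MYBL1 had no window in the promoter table. Of the 14 windows of the 8 members in it, 8 held a CHR match, 3 an E2F match and 4 a match to the added E2F letters. Over all 35116 windows of 27305 genes the shares were 32.2% for CHR, 13.0% for E2F and 13.5% for the added E2F letters. Members that did not pass the test held CHR matches too, in both LIN54 windows, 1 of 2 LIN37 windows and 2 of 3 TFDP2 windows. The LIN54 windows overlap and hold the same CHR match and the same added E2F match. These enter the counts of 8 and of 4 windows for each of them. A match describes letters and is not a measured site.

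**Figure D2:**
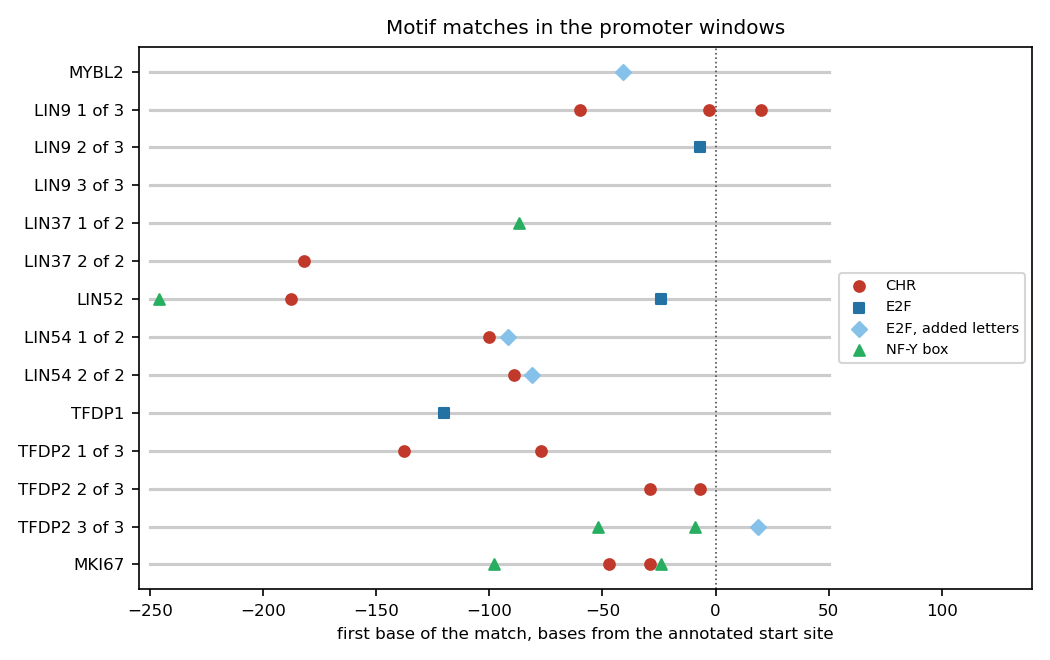
Position of CHR, E2F, added E2F and NF-Y box matches (markers) along each promoter window (grey lines, 1 row a window), in bases from the annotated start site (horizontal axis, 0 at the dotted line). MKI67 and the first LIN9 window hold CHR matches within 60 bases of the start, and the TFDP1 window holds a lone E2F match.

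FOXM1 is the forkhead factor that activates G2 and mitotic genes, and 1 probe set read it. It measured 5.72, 5.62 and 5.40 on the log2 scale in knockdown cultures, against 7.44, 7.24 and 7.42 in control cultures. The 3 knockdown cultures all lay well below the 3 control cultures. The means were 5.58 ± 0.16 in knockdown and 7.37 ± 0.11 in control cultures (SD, n = 3 each), a change of -1.79 (SE 0.11; limma, adjusted p = 6.16e-08). This was a 3.46-fold fall, with 28.9% of the control value left. Folds here are on a log2 scale that appears to hold an offset of 16, a form read from the values. Such an offset would understate the fall of a probe set that ends near the bottom of the scale, as FOXM1 did. Counted from the deepest fall, it held place 88 of all 54613 probe sets.

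MYBL2 encodes B-MYB, the partner that turns MuvB into an activator. Its only probe set measured 6.75, 6.84 and 6.88 in knockdown cultures, against 9.16, 8.93 and 8.86 in control cultures. The knockdown cultures lay close together and far below all controls. The means were 6.82 ± 0.07 in knockdown and 8.99 ± 0.16 in control cultures (SD, n = 3 each), a change of -2.16 (SE 0.10; limma, adjusted p = 1.94e-09). The fall was 4.48-fold, left 22.3% of the control value and held place 28 from the deepest.

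MYBL1 encodes A-MYB, a relative of B-MYB known for its role in male germ cells. Its 3 probe sets all lay below the median level of the table and their arrays overlapped between the groups. The brightest measured 5.35, 5.18 and 5.66 in knockdown cultures, against 5.38, 5.79 and 5.47 in control cultures, a change of -0.15 (SE 0.15; limma, adjusted p = 0.533). The others changed by -0.20 (SE 0.13; limma, adjusted p = 0.31) and 0.15 (SE 0.12; limma, adjusted p = 0.413). A change of MYBL1 was not detected.

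MYB, the founding gene of that family and a factor of blood progenitors, stood in the list of partners and their relatives given below. It is described here with its own relatives. It measured 5.60, 5.17 and 5.39 in knockdown cultures, against 7.73, 7.39 and 7.64 in control cultures. The groups were far apart, with means of 5.39 ± 0.21 in knockdown and 7.59 ± 0.18 in control cultures (SD, n = 3 each). The change was -2.20 (SE 0.12; limma at gene level, adjusted p = 3.11e-15), a 4.60-fold fall. Its second, dim probe set changed by -0.07.

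LIN9, the subunit of MuvB that helps bind B-MYB, was lower on all 3 of its probe sets. Its brightest probe set measured 5.14, 5.66 and 5.24 in knockdown cultures, against 6.37, 6.27 and 6.39 in control cultures. All 3 knockdown values lay below the controls, with more spread than the controls had. The means were 5.35 ± 0.28 in knockdown and 6.34 ± 0.07 in control cultures (SD, n = 3 each), a change of -0.995 (SE 0.14; limma, adjusted p = 8.77e-05), a 1.99-fold fall.

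The other LIN9 probe sets were dimmer and moved the same way. The second measured 4.88, 4.83 and 4.93 in knockdown cultures, against 5.55, 5.57 and 5.71 in control cultures, and fell by 0.73 (SE 0.11; limma, adjusted p = 0.00026). The third measured 4.48, 4.55 and 4.43 in knockdown cultures, against 4.92, 4.80 and 5.11 in control cultures, and fell by 0.46 (SE 0.13; limma, adjusted p = 0.017). The groups did not overlap on either, but the call of the third was fragile. It missed the threshold without control replicate 3 (limma, adjusted p = 0.0696) and without knockdown replicate 1 (limma, adjusted p = 0.0545) or knockdown replicate 3 (limma, adjusted p = 0.0579), in a range of 0.00635 to 0.46 over all alternatives.

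LIN52, the small subunit whose phosphorylation by DYRK1A favours the DREAM form, was the member that rose. Its bright probe set measured 8.71, 8.75 and 8.59 in knockdown cultures, against 8.39, 8.22 and 8.13 in control cultures. The groups did not overlap, but the gap between them was small. The means were 8.68 ± 0.08 in knockdown and 8.25 ± 0.13 in control cultures (SD, n = 3 each), a change of 0.44 (SE 0.09; limma, adjusted p = 0.00213), a 1.35-fold rise. The call was lost in a test with no moderation across probe sets (adjusted p = 0.0569) and against a 1.2-fold change (limma's treat, adjusted p = 0.259), the highest of its alternatives, the lowest being 0.000116. Its dimmer probe set measured 5.96, 5.97 and 5.70 in knockdown cultures, against 5.46, 5.55 and 5.75 in control cultures. These overlapped, and the change of 0.29 (SE 0.12) did not pass (limma, adjusted p = 0.111).

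LIN37 and LIN54 did not pass. LIN37 is a subunit needed for repression by DREAM. Its brighter probe set measured 5.44, 5.72 and 5.52 in knockdown cultures, against 5.31, 5.28 and 5.72 in control cultures, a change of 0.12 (SE 0.14; limma, adjusted p = 0.604). Its dimmer one measured 4.95, 4.95 and 5.13 in knockdown cultures, against 5.34, 5.24 and 5.37 in control cultures. There the groups did not overlap, and the change of -0.31 (SE 0.12) missed the threshold (limma, adjusted p = 0.0727) but passed after quantile normalization with -0.36 (limma, adjusted p = 0.0356; 0.0331 to 1 over its alternatives). LIN54, the DNA-contacting subunit, measured 4.89, 4.85 and 4.95 in knockdown cultures, against 5.02, 5.14 and 5.18 in control cultures. The groups did not overlap, but the change of -0.22 (SE 0.11) on this dim probe set did not pass (limma, adjusted p = 0.208).

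TFDP1, the main DP partner of the E2F factors and of DREAM, was lower on all 3 of its probe sets. Its brightest probe set measured 9.72, 9.80 and 9.64 in knockdown cultures, against 10.23, 10.22 and 10.21 in control cultures. The controls were nearly identical and all knockdown values lay below them. The means were 9.72 ± 0.08 in knockdown and 10.22 ± 0.01 in control cultures (SD, n = 3 each), a change of -0.50 (SE 0.06; limma, adjusted p = 4.25e-05), a 1.41-fold fall.

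The other TFDP1 probe sets fell further. The second measured 7.82, 8.03 and 7.86 in knockdown cultures, against 8.52, 8.58 and 8.50 in control cultures, and fell by 0.63 (SE 0.08; limma, adjusted p = 7.24e-05). The third measured 7.27, 7.36 and 7.22 in knockdown cultures, against 8.46, 8.24 and 8.42 in control cultures, and fell by 1.09 (SE 0.09; limma, adjusted p = 8.67e-07). The 3 probe sets shared a direction and differed in size. The fall of the third was deeper than that of the first by 0.59, and the array values of that difference did not overlap between the groups (exact two-sided permutation test, p = 0.1, the smallest possible). The size of the fall of TFDP1 thus ranged between 1.41-fold and 2.13-fold by probe set.

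TFDP2, the second DP gene, did not pass on any of 4 probe sets. Its brightest probe set measured 7.08, 7.23 and 7.03 in knockdown cultures, against 7.25, 7.49 and 7.09 in control cultures, a change of -0.16 (SE 0.11; limma, adjusted p = 0.363). The others changed by 0.20 (SE 0.12; limma, adjusted p = 0.31), 0.06 (SE 0.13; limma, adjusted p = 0.797) and 0.46 (SE 0.17; limma, adjusted p = 0.0679). The groups overlapped on all 4 probe sets, and the signs were mixed. At an unadjusted p under 0.05, 1 of the 4 passed in limma, as did 33.5% of all probe sets. The last and dimmest measured 5.25, 4.83 and 5.09 in knockdown cultures, against 4.22, 4.87 and 4.70 in control cultures. Without control replicate 2 its change was 0.60 and passed (limma, adjusted p = 0.0249; up to 0.701 over its alternatives). Whether TFDP1 and TFDP2 differed in their change was not tested.

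MKI67 fell furthest of the members on each of its 4 probe sets. The brightest in control cultures measured 6.38, 6.37 and 6.23 in knockdown cultures, against 9.03, 9.08 and 8.94 in control cultures. Its change of -2.69 (SE 0.09; limma, adjusted p = 1.25e-10) was a 6.46-fold fall that left 15.5% of the control value. It held place 3 from the deepest fall among all 54613 probe sets.

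The other 3 probe sets of MKI67 fell about as far. The one with the highest mean over all arrays measured 6.41, 6.69 and 6.39 in knockdown cultures, against 8.94, 8.88 and 8.89 in control cultures, and fell by 2.41 (SE 0.10; limma, adjusted p = 9.27e-10). Another measured 5.89, 5.64 and 5.74 in knockdown cultures, against 8.29, 8.20 and 8.30 in control cultures, and fell by 2.51 (SE 0.10; limma, adjusted p = 6.97e-10). The dimmest measured 5.50, 5.38 and 5.25 in knockdown cultures, against 7.944, 8.001 and 8.008 in control cultures, and fell by 2.61 (SE 0.10; limma, adjusted p = 6.37e-10). The 4 falls lay between 5.30-fold and 6.46-fold and within place 16 of the deepest in the table. They differed from each other by at most 0.29 on the log2 scale. That largest difference lay between the deepest and the smallest fall. Its array values did not overlap between the groups (exact two-sided permutation test, p = 0.1, the smallest possible).

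**Figure D3:**
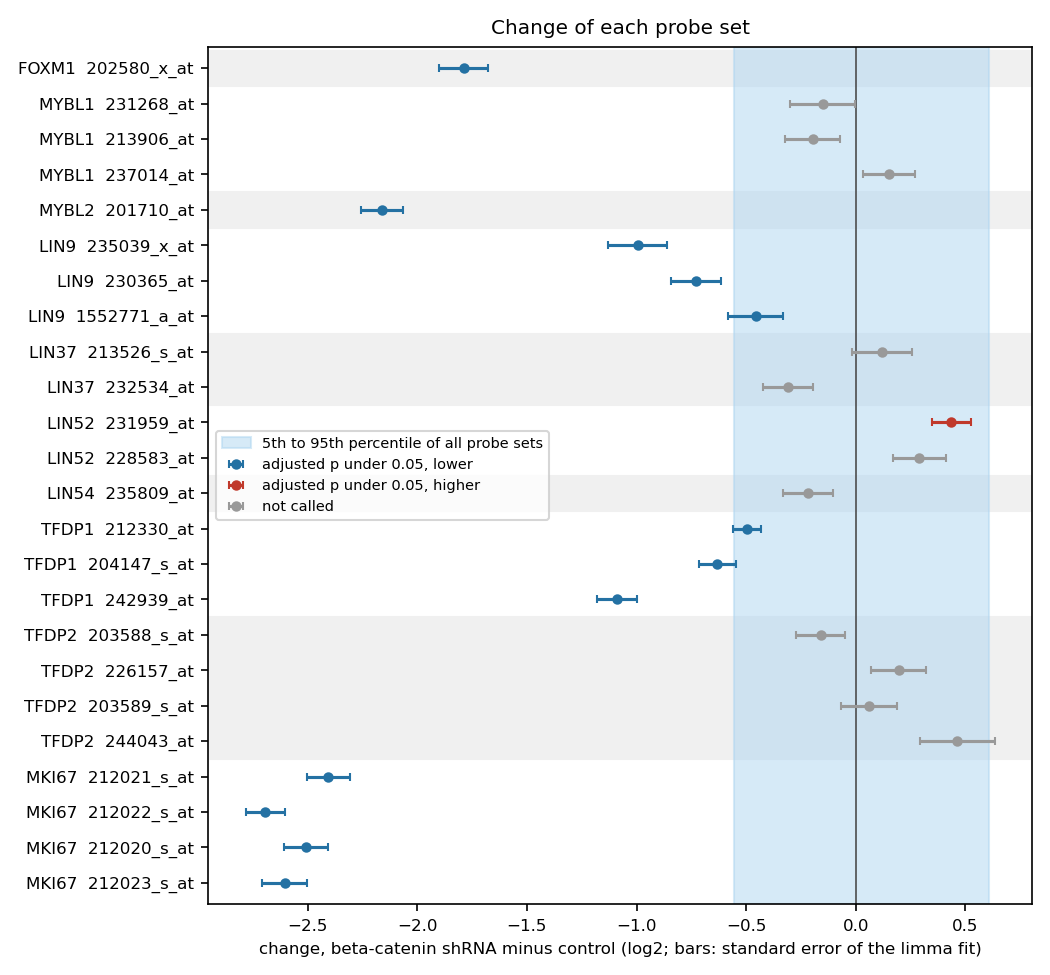
Change of each probe set (points, log2, beta-catenin shRNA minus control) with the standard error of the limma fit (bars), coloured by call, and the range holding the middle of all probe sets from the 5th to the 95th percentile (-0.55 to 0.61, pale band). All MKI67 probe sets, MYBL2 and FOXM1 lie far left of the band, LIN9 and TFDP1 have probe sets inside and outside it, and the uncalled members lie within it.

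The list of partners of MuvB and DREAM also held MYB and RB1, relatives of partners that are not named above as parts of either complex. Of its 8 genes, 7 were tested at gene level. Of these, 3 were lower and 1 was higher, where 47.3% of all genes passed in either direction. Without knockdown replicate 3, 2 were higher. Their median change was 0.011, against 0.046 for all genes. MYB, described above, had the deepest fall. RB1, the retinoblastoma pocket protein, averaged 6.51 ± 0.14 in knockdown and 6.02 ± 0.23 in control cultures (SD, n = 3 each), a rise of 0.50 (SE 0.12; limma, adjusted p = 0.00121). That call was lost with no moderation (adjusted p = 0.0804) and against a 1.2-fold change (limma's treat, adjusted p = 0.129). RBL1, the pocket protein p107 and itself an E2F target, averaged 5.66 ± 0.27 in knockdown and 6.08 ± 0.18 in control cultures (SD, n = 3 each) and fell by 0.42 (SE 0.13; limma, adjusted p = 0.00967). That call was lost without control replicate 3 (-0.32; limma, adjusted p = 0.0548) and without knockdown replicate 3 (-0.27; limma, adjusted p = 0.0943), in a range of 0.00124 to 0.458 over its alternatives, and the same probe set had an adjusted p of 0.0506 in limma over all probe sets. The other probe sets of RBL1 changed by -0.15, 0.08 and 0.15 without passing, and their arrays overlapped between the groups. RBL2, the pocket protein p130, changed by 0.12 (limma, adjusted p = 0.334) and E2F4, the main E2F of DREAM, by 0.011 (limma, adjusted p = 0.934), and neither passed on its brightest probe set. The other probe set of E2F4 averaged 6.59 in knockdown and 6.93 in control cultures and was called lower, with -0.34 (limma over all probe sets, adjusted p = 0.0234). DYRK1A, the kinase that phosphorylates LIN52, changed by 0.22 (limma, adjusted p = 0.0768), and passed without knockdown replicate 3 with 0.31 (limma, adjusted p = 0.0268; 0.0188 to 1 over its alternatives).

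RBBP4, the histone-binding subunit that MuvB shares with other chromatin complexes, had no single direction. Its brightest probe set fell by 0.42 (SE 0.08; limma, adjusted p = 6.85e-05), with means of 8.92 ± 0.05 in knockdown and 9.34 ± 0.09 in control cultures (SD, n = 3 each). Of its 6 probe sets 2 were lower, and 2 were higher by 0.52 and 0.29. E2F5, the other E2F of DREAM, was too dim for the gene-level test. Its brighter probe set averaged 5.68 ± 0.07 in knockdown and 4.85 ± 0.20 in control cultures (SD, n = 3 each), a rise of 0.83 (limma over all probe sets, adjusted p = 0.000235), and the other changed by 0.08 without passing.

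The kinases, cyclins, phosphatases and ligases that act on FOXM1 or B-MYB were mostly lower. Of 16 tested 13 fell, where 22% of all genes were lower, with a median change of -1.02 against 0.046 for all genes. The lists share genes. CCNA2, CCNB1, CDK1 and PLK1 are counted again among the G2 and mitosis targets below. CCNE1 and, from the partners, RBL1 are counted again among the G1/S targets. Cyclin A and cyclin B, whose CDK complexes phosphorylate both factors, fell most. CCNA2 averaged 6.45 ± 0.15 in knockdown and 8.90 ± 0.09 in control cultures (SD, n = 3 each), a change of -2.45 (limma, adjusted p = 7.45e-18). CCNB1 averaged 6.45 ± 0.12 in knockdown and 9.02 ± 0.10 in control cultures (SD, n = 3 each), a change of -2.57 (limma, adjusted p = 1.71e-18). Their kinase CDK1 fell by 1.70, 3.24-fold (limma, adjusted p = 6.66e-15), and PLK1, a mitotic kinase that phosphorylates FOXM1, changed by -1.39 (limma, adjusted p = 5.48e-12). The CDK-activating phosphatases CDC25A and CDC25B fell by 2.20 (limma, adjusted p = 5.98e-14) and 1.72 (limma, adjusted p = 5.94e-15).

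Of the G1 kinases and cyclins, CCNE1 fell by 1.18 (limma, adjusted p = 2.27e-10) and its kinase CDK2 by 0.87 (limma, adjusted p = 2.45e-07). CDK4 and CDK6, which stabilise FOXM1 by phosphorylation, fell less, by 0.27 (limma, adjusted p = 0.00829) and 0.24 (limma, adjusted p = 0.0146). Without knockdown replicate 1 the call of CDK4 was lost (limma, adjusted p = 0.0545), and without knockdown replicate 3 that of CDK6 (limma, adjusted p = 0.0586), and over all alternatives both reached an adjusted p of 1, in the test against a 1.2-fold change. Their cyclins did not pass: CCND1 changed by 0.053, CCND2 by -0.037 and CCND3 by -0.21 on their brightest probe sets. Another bright probe set of CCND2 averaged 7.49 in knockdown and 8.44 in control cultures and was called lower, with -0.94 (limma over all probe sets, adjusted p = 7.39e-06), and its other probe sets changed by -0.57 and -0.39 without passing. Of the ubiquitin ligase subunits, CCNF (cyclin F), which restrains B-MYB, fell by 1.94 (limma, adjusted p = 5.07e-14) and SKP2 by 0.79 (limma, adjusted p = 7.22e-07). The other probe sets of SKP2 changed by -0.26 and -0.30 without passing. FZR1, the CDH1 activator of the anaphase-promoting complex, fell by 0.30 (limma, adjusted p = 0.0319). That call was lost when control replicate 2 or 3 or knockdown replicate 2 or 3 was left out, with limma's adjusted p up to 0.125, and over all alternatives it was 0.00937 to 0.904. Over all probe sets the same probe set of FZR1 had an adjusted p of 0.0700 (limma). The other probe sets of FZR1 changed by -0.16, -0.10 and 0.16 without passing.

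Genes known as G2 and mitosis targets of B-MYB, MuvB and FOXM1 fell in 54 of 59 tested and 1 was higher. Of all genes tested 22% were lower and 25.3% higher. The median change of the list was -1.64, against 0.046 for all genes. CCNB1 and CCNA2, given above, had the smallest adjusted p of the list. CKS2, a small CDK subunit, averaged 8.21 ± 0.06 in knockdown and 10.06 ± 0.13 in control cultures (SD, n = 3 each), a 3.62-fold fall (limma, adjusted p = 2.78e-17). CDCA3, a trigger of mitotic entry, averaged 6.11 ± 0.09 in knockdown and 8.37 ± 0.08 in control cultures (SD, n = 3 each), a 4.80-fold fall (limma, adjusted p = 4.74e-17). TOP2A, the topoisomerase that untangles sister chromatids, fell 4.30-fold (limma, adjusted p = 1.75e-16) and ASPM, a spindle pole protein, 4.24-fold (limma, adjusted p = 1.83e-16).

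The exceptions of that list rested on which probe set was read. CCNB2, a B-type cyclin, was the gene called higher, by 0.34 (SE 0.10; limma, adjusted p = 0.00386), with means of 8.85 ± 0.11 in knockdown and 8.50 ± 0.19 in control cultures (SD, n = 3 each). Its other bright probe set averaged 7.30 in knockdown and 8.73 in control cultures, a change of -1.43. The 4 genes that did not pass, named after their values were seen, were KIF20B, GTSE1, CKAP2 and DEPDC1. On their brightest probe set they changed by 0.08, 0.03, -0.09 and -0.02. Each had at least 1 other probe set that was lower, with changes of -0.96 for KIF20B, -1.84, -1.82 and -1.71 for GTSE1, -0.86 for CKAP2 and -0.60, -0.73 and -0.58 for DEPDC1. When the probe sets of each gene were averaged, 59 of 59 were lower, against 2491 of all 12939 genes.

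Genes known as G1/S targets of E2F and DREAM fell in 40 of 42 tested, where 22% of all genes were lower. Their median change was -1.16, against 0.046 for all genes. RRM2, the small subunit of ribonucleotide reductase, averaged 8.64 ± 0.07 in knockdown and 11.24 ± 0.02 in control cultures (SD, n = 3 each), a 6.09-fold fall (limma, adjusted p = 7.58e-23). UHRF1, which guides maintenance DNA methylation, averaged 6.51 ± 0.23 in knockdown and 9.07 ± 0.01 in control cultures (SD, n = 3 each), a 5.91-fold fall (limma, adjusted p = 6.57e-18). E2F8, an atypical E2F repressor, fell 5.47-fold (limma, adjusted p = 1.97e-16). The replicative helicase subunit MCM2 fell 3.39-fold (limma, adjusted p = 1.48e-16), RRM1 2.90-fold (limma, adjusted p = 1.05e-14) and TYMS, thymidylate synthase, 2.82-fold (limma, adjusted p = 7.95e-18). PRIM1 and GINS2, both replication genes and named after their values were seen, changed by -0.10 and 0.24 and did not pass. PRIM1 has 1 probe set, while for GINS2 only the brightest of 3 was read.

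The promoter windows of the target lists held different letters. Of 60 windows of 52 G2/M targets, 83.3% held a CHR match and 25% an E2F match, against 32.2% and 13.0% of all windows. Of 53 windows of 37 G1/S targets, 22.6% held a CHR match and 71.7% an E2F match. The CCAAT box, bound by NF-Y, was in 76.7% of the G2/M and 52.8% of the G1/S windows, against 34.6% of all windows. The MYB letters AACNG were in 90.0% and 79.2% of these windows and in 77.2% of all. The forkhead letters TAAACA were in 8.33% and 7.55%, against 12.3% of all. Many genes of these lists are known as targets because of such elements, so these shares describe the lists and are no independent evidence.

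**Figure D4:**
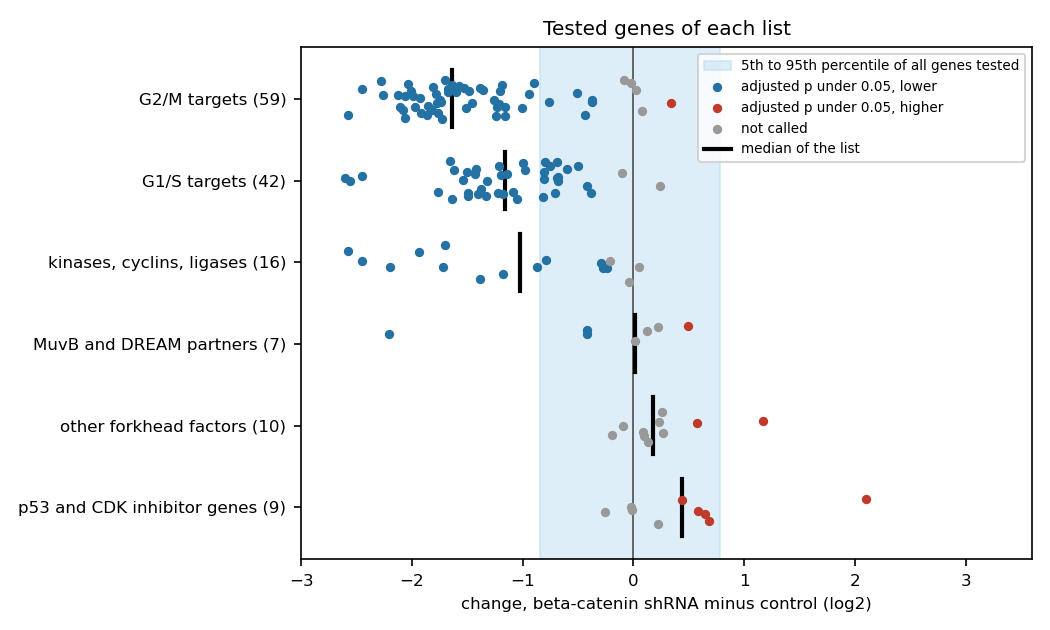
Change of each tested gene (points, log2, beta-catenin shRNA minus control, horizontal axis) in 6 gene lists (rows, with the number of tested genes), coloured by call, with the list medians (black bars) and the 5th to 95th percentile of all genes tested (-0.85 to 0.79, pale band). The G2/M and G1/S targets lie mostly left of 0 with medians of -1.64 and -1.16. The list of partners of MuvB and DREAM, which includes their relatives MYB and RB1, is spread around 0.

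Of the other forkhead factors, 10 were tested and 2 were higher, where 25.3% of all genes were, with a median change of 0.18. Without control replicate 3 the count was 4. FOXO3, a factor of quiescence that competes with FOXM1 for forkhead sites, averaged 11.44 ± 0.01 in knockdown and 10.27 ± 0.03 in control cultures (SD, n = 3 each), a rise of 1.17 (SE 0.05; limma, adjusted p = 5.03e-17), and was higher on 4 of its 4 probe sets. FOXN3, a checkpoint factor, averaged 7.69 ± 0.05 in knockdown and 7.11 ± 0.10 in control cultures (SD, n = 3 each), a rise of 0.58 (limma, adjusted p = 2.34e-05). The others, FOXO1, FOXO4, FOXP1, FOXK1, FOXK2, FOXN2, FOXJ2 and FOXJ3, changed by -0.20 to 0.27 on their brightest probe sets and did not pass. A second bright probe set of FOXO1, a relative of FOXO3, averaged 6.28 in knockdown and 5.64 in control cultures and was called higher, with 0.65 (limma over all probe sets, adjusted p = 0.00153).

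Genes of the p53 and CDK inhibitor axis, which acts on FOXM1 and MYBL2 through DREAM, were higher in 5 of 9 tested, where 25.3% of all genes were, with a median change of 0.44. With no moderation the count was 3, CDKN1C and ZMAT3 losing their calls (adjusted p = 0.0577 and 0.0666). CDKN1A, the CDK inhibitor p21, averaged 9.47 ± 0.05 in knockdown and 7.37 ± 0.13 in control cultures (SD, n = 3 each), a rise of 2.10 (SE 0.09; limma, adjusted p = 1.88e-17), 4.28-fold. CDKN1C, the inhibitor p57, rose by 0.68 (limma, adjusted p = 8.98e-05), and the p53 targets MDM2, SESN1 and ZMAT3 rose by 0.59, 0.44 and 0.64 (limma, adjusted p at most 0.000585). The 10 probe sets of MDM2 differed. Another bright one averaged 8.06 in knockdown and 6.27 in control cultures, a rise of 1.79 (limma over all probe sets, adjusted p = 1.85e-08). A further one changed by -0.12 and did not pass. CDKN1B (p27) changed by 0.22 (limma, adjusted p = 0.0508), CDKN2D by -0.02, CCNG1 by -0.01 and CCNG2 by -0.25, and these did not pass.

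The genes whose profile over the 6 arrays lay nearest to 3 of the members, by root mean square difference of mean-centred log2 values among 12938 other genes, are given as a description. Nearest to FOXM1 were BUB1, a spindle checkpoint kinase (0.0460), HSPH1, a chaperone (0.0494), and PBK, a mitotic kinase (0.0534). Nearest to MYBL2 were a probe set annotated MIR142 (0.104), TPX2, a spindle assembly factor (0.111), and SF3B3, a splicing factor (0.114). Nearest to MKI67 were CCNA2 (0.0755), E2F8 (0.0797) and CDCA2 (0.0820), which recruits a phosphatase to chromatin. With a single contrast, this likeness is mainly a like size of change.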

How the data were processed

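RNA of 3 beta-catenin shRNA and 3 control cultures was measured on Affymetrix arrays of 1 colour. The authors deposited log2 values, 1 per probe set and array, with a floor at 4 that fits log2(signal + 16), a form read from the values. MAS5 and PLIER are named, per the submitters' processing notes, without role or version; the sources used here do not give the normalization between arrays, and values were used as deposited. The number of arrays limits the precision.

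Genes were named from the platform's annotation, only from probe sets with 1 symbol. Members were tested in limma 3.58.1 (R 4.3.3; lmFit, eBayes with an intensity trend, two-sided) over 54613 non-control probe sets without a filter, with Benjamini-Hochberg adjustment and a threshold of 0.05. Lists were read at gene level, by each gene's brightest probe set if its mean was at least 5.49, the median. Changes are knockdown minus control with the SE of the fit. Single values were compared by exact permutation. On simulated arrays of 54613 probe sets, only 50 were given each size of change. There the test recovered 82% of falls of 1 and 10% of falls of 0.5 on the log2 scale, and 86% and 20% of such rises. In the real data 23.2% of probe sets passed, which makes the adjusted threshold less strict. The simulated shares therefore do not give the share of changes missed here.

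Named were all members, CTNNB1, all tested genes of the partner, regulator, forkhead and p53 lists, and of both target lists the 6 called genes with the smallest adjusted p and any called the other way; the profile neighbours were the nearest 3. Members and lists were chosen with earlier results of these data known. Same-numbered cultures did not deviate together, so the numbers were not taken as pairs. Alternatives changed normalization, filter, probe set rule, variance model or offset, blocked on the replicate number, or left out an array, singly. Promoter sequences are RefSeq's (GRCh38.p14). List genes with no single-symbol probe set were not analysed here.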

Additional observations from a re-analysis of the deposited data

How the results depend on the processing

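FOXM1 stayed called under all alternatives run, with changes of -1.86 to -1.51, as did MYBL2 (-2.22 to -2.02) and each probe set of MKI67 and TFDP1; the 2 brighter LIN9 probe sets did too. The count of member probe sets that were higher, 1 as reported, was 2 with robust eBayes, 0 with no moderation, 0 against a 1.2-fold change, and 1 to 2 when single arrays were left out, the 2 being without control replicate 2. Among member genes it was 0 against a 1.2-fold change. For G2/M targets the 1 higher gene became 0 with no moderation, against a 1.2-fold change and with the mean over probe sets, and 2 where probe sets marked _x_ or _s_ came second. G1/S targets had 1 higher gene with a filter at the 75th percentile and 0 to 1 when single arrays were left out (1 without control replicate 2).

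Of the list of partners of MuvB and DREAM and their relatives, 1 was lower against a 1.2-fold change and with the mean over probe sets. Higher were 2 with quantile normalization, cyclic loess, no filter or _x_ and _s_ probe sets second, and 0 with no moderation, against a 1.2-fold change or with the filter at the 75th percentile. Of other forkhead factors, 4 were higher with that filter and with the mean over probe sets. After quantile normalization, centring or cyclic loess, 1 forkhead gene and 1 gene of the p53 list were lower.

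Directions turned for probe sets or genes that were not called or had probe sets that disagree. The third TFDP2 probe set lay between -0.0052 and 0.15 when single arrays were left out, and E2F4 between -0.055 and 0.052. E2F4 was -0.044 after centring and -0.16 with the mean over probe sets. That mean gave -0.095 for LIN37, 0.14 for TFDP2 and -0.40 for CCNB2. With _x_ and _s_ probe sets second, TFDP2 was 0.20 and RBBP4 0.52. With the replicate number as a block, 12 member probe sets were lower and 1 higher, and over all probe sets 4796 were lower and 6352 higher; FZR1 lost its call under the block (limma, adjusted p = 0.0658). The same-number deviations correlated at -0.07, -0.22 and -0.33. Over all probe sets 3178 were lower and 3916 higher with no moderation, and 2380 and 2662 against a 1.2-fold change. Where no value above shows it, the cause was not tested. Falls to near the floor of 4 are limited in size by the scale.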

Other observations

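The genes next to 2 members in the RefSeq gene order also changed. RHNO1, a neighbour of FOXM1 that encodes a DNA damage checkpoint protein, measured 5.96, 6.15 and 5.73 in knockdown cultures, against 6.77, 6.65 and 6.92 in control cultures, a change of -0.83 (SE 0.12; limma, adjusted p = 9.53e-07). ITFG2, also near FOXM1, changed by -0.28 (limma, adjusted p = 0.0473). ALDH6A1, a mitochondrial dehydrogenase gene next to LIN52, measured 6.77, 6.76 and 6.61 in knockdown cultures, against 5.80, 5.80 and 6.13 in control cultures, a change of 0.80 (SE 0.12; limma, adjusted p = 1.16e-06). The groups did not overlap for RHNO1 or ALDH6A1, and each moved the same way as its neighbour among the members. Of all genes tested 22% were lower and 25.3% higher, and whether the neighbours are linked to the members was not tested.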
